A study of Mus musculus with 15 samples.

Results

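The regions described here are ATAC-seq peaks that fall in exons, in the untranslated ends (UTRs) or just past the end of named genes in mouse pancreatic islets. They were taken from 4 deposited peak tables as every peak annotated as exon, 3' UTR, 5' UTR or downstream, leaving out genes whose symbol marks a predicted, microRNA or Riken locus. Before partial pancreatectomy (PPx) and after it, 2 tables compare genotypes, and 2 more compare the states within control and within KO-labelled islets. In that order they held 141 of 7826, 328 of 13111, 151 of 8070 and 315 of 12767 such peaks. Merged by overlap, these peaks were 359 regions at 347 genes, of 13858 regions in all. They were 198 exon, 85 3' UTR, 15 5' UTR and 63 downstream regions, and 2 regions changed class between tables.

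All mice were males aged 3 months with Arid1a Fl/Fl alleles and the MIP-rtTA transgene, a doxycycline-dependent activator under the mouse insulin promoter. All mice, controls included, received doxycycline (1 g/L in drinking water for 2 weeks). TRE-Cre was added in the KO-labelled mice, in which doxycycline turns on Cre recombinase in beta cells while other islet cells keep the floxed alleles. Libraries came from 3 KO-labelled and 4 control mice before PPx, and from 4 KO-labelled and 4 control mice whose islets were isolated 6 days after PPx, an operation done 1 week after doxycycline withdrawal. Each library used 40000 islet cells. Islets mix beta cells with other endocrine, vascular and immune cells, so a change in the share of a cell type and a change within a cell type cannot be told apart. Of the marker genes listed for beta cell identity, 18 of 28 had at least 1 peak in the tables. So had 3 of 6 for alpha cells, 2 of 5 for delta and PP cells, 3 of 6 each for endothelial and for stellate or fibroblast cells and 2 of 6 for leukocytes. The ductal list had 1 of 5, the acinar list 1 of 8 and the Schwann cell list 0 of 4. The part of other cell types in the results was not tested.

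In ATAC-seq the Tn5 transposase cuts and tags DNA that nucleosomes leave open, so read density over a peak reports accessibility. Most open sites of a cell lie at promoters and at distant enhancers. Open sites within exons, UTRs or just past a gene's end are a small minority and can be enhancers inside the gene, start sites of shorter transcripts, or start sites of a neighbouring gene. The protein made from Arid1a is part of the SWI/SNF complex and binds DNA, and the complex uses ATP to move nucleosomes away from such sites.

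Neighbouring or internal start sites were found under 13 of the 359 regions by overlap with RefSeq start-site windows (250 bases before to 50 bases after a start, GRCm38.p6, the same assembly as mm10). The windows number 32851 at 27025 genes and are not complete. In 3 of the 13 regions the start belonged to the gene named by the annotation and in 10 to another gene. By class they were 7 downstream, 3 exon, 3 5' UTR and 0 3' UTR regions. The peak in exon 6 of 24 of Egf (epidermal growth factor) covered a second RefSeq start of Egf itself. The downstream peak of Zfp329 covered the start of Zscan18, and the downstream peak of Camk2g covered the start of Ndst2, an enzyme of heparan sulfate synthesis. The 5' UTR peak of H2bc6, a replication-dependent histone H2B gene, covered the start of that gene.

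Stretches of 30 bases just before these 4 starts are shown because they place a start-site motif inside a peak that was annotated as exon, UTR or downstream. Capitals mark the motif, each stretch reads 5′ to 3′ on the minus strand, and all come from RefSeq (GRCm38.p6). The motifs were chosen after the sequences had been read. The NRF1 core (CGCATGCG) began 78 and 20 bases before the inner Egf start, at chr3:129725146-129725175 and chr3:129725088-129725117. The cAMP response element (TGACGTCA) stood 48 bases before the Zscan18 start, at chr7:12803668-12803697. GC boxes (CCCGCCC) stood 107, 86 and 24 bases before the Ndst2 start, and the farthest is shown, at chr14:20734651-20734680. The octamer, a known element of H2B promoters (ATTTGCAT), stood 67 bases before the H2bc6 start, at chr13:23586019-23586048.
Egf, first copy: tcccactcgagCGCATGCGctgagggctac
Egf, second copy: aaggtaatgtgCGCATGCGccagaagctgt
Zscan18: tcagcttttagTGACGTCAggcagctcagg
Ndst2: cgagtcttcgcCCCGCCCcaggcggaggtg
H2bc6: agtaagacttaATTTGCATaagactgccta
Searched on both strands, these letters occurred in 1.87% (NRF1 core), 1.79% (cAMP response element), 25.57% (GC box) and 1.74% (octamer, reverse complement ATGCAAAT) of all 32851 windows. Among the 13 windows under these regions they occurred in 1, 1, 6 and 1. A match of letters is not a binding site.

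ChIPseeker, in its usual order, gives a peak near a start site to the promoter class before the exon class, so early exons are largely left out by the way the regions were chosen. Of the 198 exon regions 0 were in exon 1 and 16 in exon 2, 142 were in exon 5 or later, and 31 were in the last exon of the transcript named by the annotation. The median exon was number 8 of a median of 14, and the exon regions lay in genes of median length 77.5 kb. The median gene length was 42 kb for 3' UTR, 33 kb for 5' UTR and 18.9 kb for downstream regions, against 187 kb for intron regions, 35.3 kb for distal and 30.5 kb for promoter regions of named genes. Of the 359 regions, 296 overlapped the RefSeq gene of the same symbol.

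Of the 359 regions, 143 (39.8%) were listed in the 2 tables that hold the KO-labelled libraries after PPx and in neither of the others, against 29.7% of all regions. The share was 35.2% for intron, 38% for distal and 25.5% for promoter regions of named genes, so it lay near that of introns and distal sites. In all 4 tables were 108 regions (30.1%), against 49.2% of all, 32.7% of intron, 34% of distal and 59.4% of promoter regions. No test of these differences was made. By class, 49.2% of downstream, 46.7% of 5' UTR, 37.6% of 3' UTR and 36.9% of exon regions were listed in only those 2 tables. A table lists a peak that was called in enough libraries of its own groups, so being listed is not a measure of level.

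**Figure D1:**
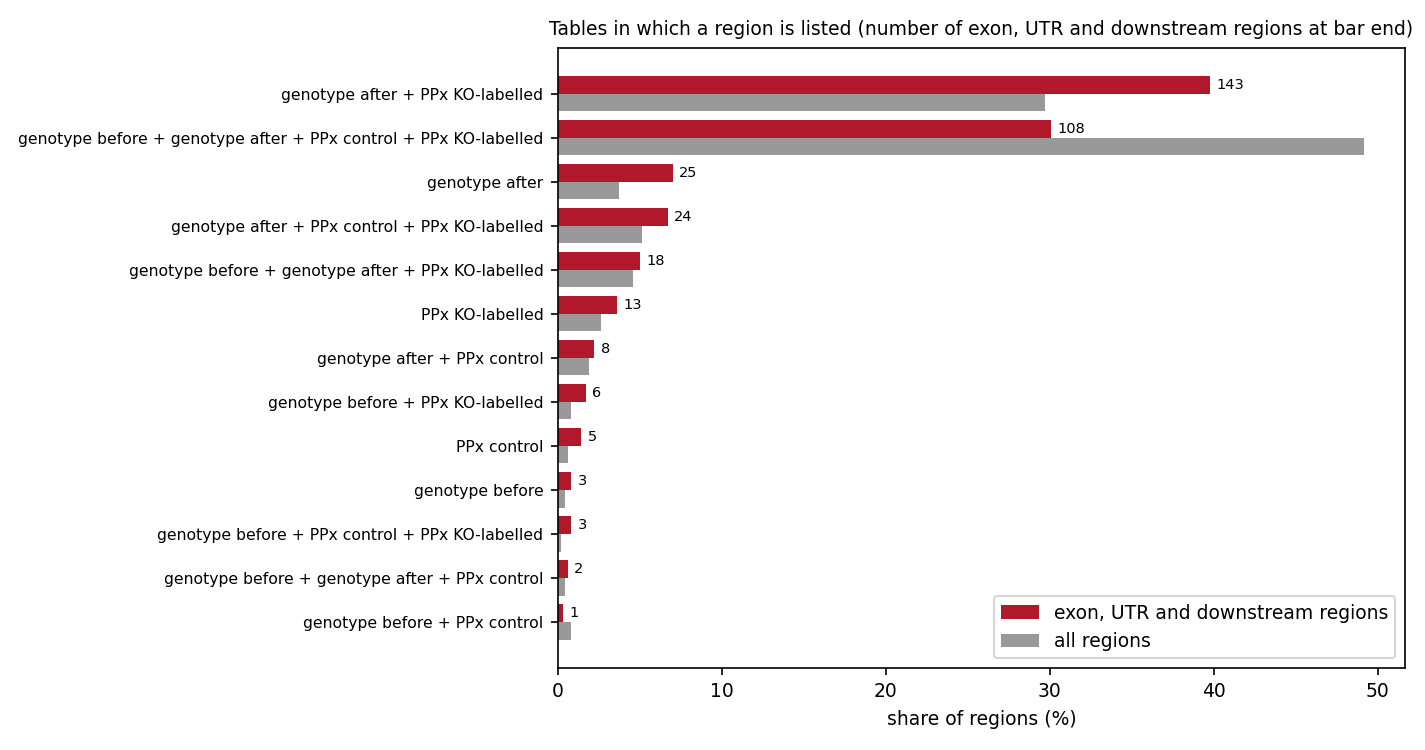
Share of regions (%, horizontal axis) listed in each combination of tables, for exon, UTR and downstream regions (red, number at the bar end) and for all regions (grey). The largest red bar is the pair of tables with KO-labelled libraries after PPx (143 regions), and the largest grey bar is the set in all 4 tables.

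The deposited tables give the mean of each group as log2 normalised reads per peak, not single libraries, so the number of libraries in which a peak was called stands here in place of per-mouse values. Depth per library is unknown. How the tables were scaled is not stated, and levels are set side by side only within a table. The error of a fold is an implied standard error (SE), the size of the fold divided by the normal quantile of the authors' p, and a peak is called where the authors' FDR is 0.05 or less. Levels were mostly low. The median member had 3.76, 3.505, 3.69 and 3.43 log2 reads in the 4 tables, ordered as above, against 4.02, 3.80, 3.925 and 3.78 over all peaks. Only 7, 13, 6 and 13 members reached 5 log2 reads.

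Levels at the top were set by a few regions that varied little between groups. The peak in exon 5 of 27 of Chl1 (chr6:103648917-103649517), a neural cell adhesion gene of the L1 family, ranked 4 among all peaks of every table. Before PPx it had 12.79 log2 reads in KO-labelled and 12.75 in control islets, and after PPx 12.76 in KO-labelled and 12.69 in control islets. The next member, the 3' UTR peak of Lars2 (chr9:123461721-123462321), which encodes the mitochondrial leucyl-tRNA synthetase, had 6.77 in KO-labelled and 6.90 in control islets before PPx, and 6.71 in KO-labelled and 6.80 in control islets after PPx. The Chl1 peak had the same coordinates in every table. Whether signal this high reflects open chromatin was not tested at the Chl1 or the Lars2 peak. Both peaks were called in every library of both states. Their 4 folds ran from 0.05 to 0.20 for Chl1 and from -0.13 to 0.16 for Lars2 in the authors' deposited tables, each smaller than its implied SE (0.22 to 0.38).

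The other regions of highest level in all 4 tables were near genes of varied function. They were the 5' UTR of Sybu (syntabulin, a kinesin adaptor of vesicle transport), exon 4 of Junos (transcribed opposite Jun), exon 3 of Tmtc3, the downstream peak of Pdcd1 (the immune receptor PD-1), exon 6 of Egf and the 5' UTR of Msl3l2. Sybu had 6.27 log2 reads in KO-labelled and 5.56 in control islets after PPx, called in 4 of 4 libraries of each group. Its log2 fold of 0.71 (FDR 0.081, implied SE 0.32) by the authors' deposited table missed the threshold. Junos had 5.86 log2 reads in KO-labelled and 5.17 in control islets after PPx, a log2 fold of 0.69 (FDR 0.0824, implied SE 0.31) by the authors' deposited table.

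Before PPx, the comparison of genotypes asks how beta cell deletion of Arid1a relates to open chromatin at rest. The median log2 fold of the 141 members was -0.12 (middle 50% from -0.48 to 0.19), against 0.00 over all peaks, -0.23 for introns, -0.12 for distal and 0.04 for promoter peaks of named genes. The median implied SE of a member was 0.47, larger than the median fold. Exon, 3' UTR, 5' UTR and downstream members had medians of -0.14, -0.13, -0.10 and -0.085. The authors' FDR called 1 member gained and 0 lost, against 0.0128% of all peaks gained and 0% lost. At an unadjusted p under 0.05 there were 2 members higher and 10 (7.09%) lower (all peaks: 0.843% higher, 2.3% lower). The share lower was 7.18% for introns, 4.74% for distal and 1.01% for promoter peaks of named genes, so members lay near introns.

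The member that gained lay in the targeted gene itself. The Arid1a peak in exon 9 of 20 (chr4:133692981-133693581) had 5.49 log2 reads in KO-labelled and 1.21 in control islets, called in 3 of 3 KO-labelled and 0 of 4 control libraries. Its log2 fold was 4.28 (FDR 0.00187, implied SE 0.83) by the authors' deposited table. After PPx it had 4.04 log2 reads in KO-labelled and 0.40 in control islets, called in 3 of 4 KO-labelled and 0 of 4 control libraries, a log2 fold of 3.64 (FDR 0.00201, implied SE 0.69) by the authors' deposited table. At the gene that Cre targets the signal was thus the higher of the pair under the KO label. Which exon is floxed is not in the labels, and this peak is no check on them.

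Of all 7826 peaks in the genotype comparison before PPx, only the Arid1a peak had an FDR under 1. The other members named before PPx did not pass. Among the lower ones, exon 24 of 38 of Chd7, a chromatin remodeller gene, had 3.15 log2 reads in KO-labelled and 4.43 in control islets, with a log2 fold of -1.28 (FDR 1) by the authors' deposited table. Mcc exon 11 of 17 (-1.32) and the downstream peak of Dyrk3, a protein kinase gene (-1.59), also had an FDR of 1 in the authors' deposited table. Chd7, Mcc and Dyrk3 were called in 0 of 3 KO-labelled libraries, and in 3, 3 and 2 of 4 control libraries. On the higher side the authors' deposited table gave log2 folds of 1.77 for Fez2 exon 5 of 8, 0.75 for the Aqp4 3' UTR and 0.58 for Zbbx exon 4 of 17, each at an FDR of 1.

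After PPx, the comparison of genotypes asks the same during regeneration. Members lay higher in KO-labelled islets by a median log2 fold of 0.39 (middle 50% from 0.07 to 0.70). The median was 0.61 over all peaks and 0.71 for promoters. Above 0 were 263 of 328 members (80.2%), against 90.3% of all peaks. How far listing sets the members' median was not tested. The 143 regions listed only in the 2 tables with KO-labelled libraries after PPx had a median of 0.56, with 133 above 0. Of those 143, 109 were called in 0 control libraries. The 108 regions listed in all 4 tables had a median of 0.33, with 84 above 0. Introns (0.37) and distal peaks (0.42) of named genes had medians close to that of the members. The median implied SE of a member was 0.43. Exon, 3' UTR, 5' UTR and downstream members had medians of 0.36, 0.32, 0.60 and 0.42. Set against the table's median, the members' median was -0.22. In the band of 4 log2 reads and above the member median was 0.43, against 0.43 for introns, 0.495 for distal and 0.75 for promoter peaks.

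**Figure D2:**
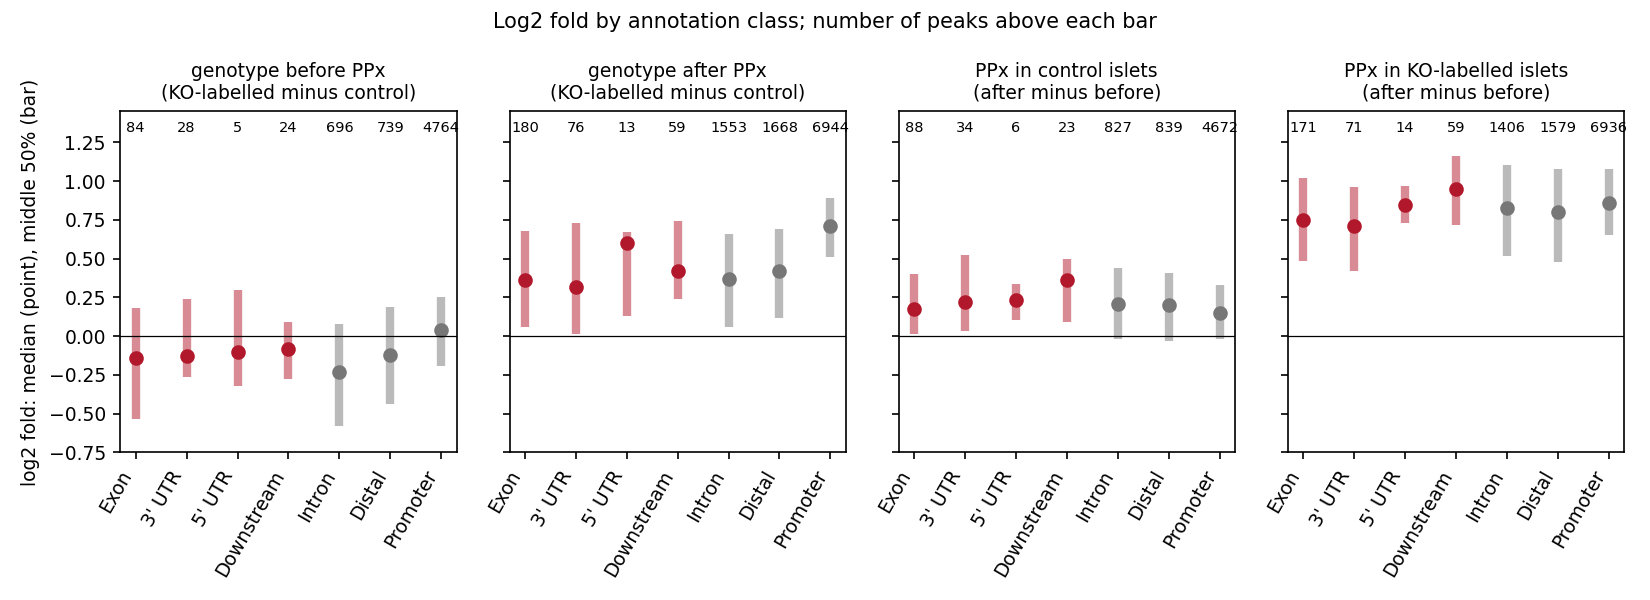
Median log2 fold (point) and middle 50% of peaks (bar) by annotation class in the 4 tables, with exon, UTR and downstream classes in red, introns, distal and promoter peaks of named genes in grey, and the number of peaks above each bar. After PPx the promoters (0.71) lie above the exon (0.36) and 3' UTR (0.32) members, while in PPx of KO-labelled islets all classes lie between 0.71 and 0.95.

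The authors' FDR called 9 members gained and 1 lost after PPx, which is 2.74% gained, against 9.89% of all peaks gained and 0.0839% lost, and against 2.06% of introns, 3.66% of distal and 14.62% of promoter peaks gained. An FDR of 1 stood beside 49.1% of the members and 34.6% of all peaks. Every member with an FDR of 1 had a mean of 3.50 log2 reads or less. Among peaks with an FDR under 1, the share gained was 5.39% for members, 15.12% for all peaks, 4.35% for introns, 7.29% for distal and 18.88% for promoter peaks, so members still lay below all peaks and promoters. These shares were not tested against each other. At an unadjusted p under 0.05, 54 members were higher and 2 lower (all peaks: 33% higher, 0.526% lower). With folds centred on the table median and tested by their implied SE, 1 member was higher (Arid1a) and 2 were lower (Pkhd1 exon 61 and the Lifr 3' UTR). The downstream peak of Elf4, an ETS factor gene, had 3.99 log2 reads in KO-labelled and 2.17 in control islets. Its p of 0.000144 stood beside an FDR of 1 in the authors' deposited table.

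Beside Arid1a, 8 members gained, near genes of varied function. Adjusting the authors' p over all listed peaks of the table ended the calls of 5 of the 9 gained members, at adjusted values of 0.051 for Vsig8, 0.054 for Aqp4, 0.055 for Synpo, 0.066 for St3gal6 and 0.069 for Mboat4. The downstream peak of Elf4 (0.029) and the exon peak of Cog5 (0.048), both chosen after their values were seen, entered instead. The 3' UTR peak of St3gal2 (chr8:110970038-110970638), a sialyltransferase gene, had 4.50 log2 reads in KO-labelled and 2.43 in control islets, called in 3 of 4 KO-labelled and 0 of 4 control libraries. Its log2 fold was 2.08 (FDR 0.0154, implied SE 0.48) by the authors' deposited table. A second sialyltransferase gene, St3gal6, gained in exon 7 of 11 (chr16:58475360-58475960), with 4.38 log2 reads in KO-labelled and 3.35 in control islets, and calls in 4 of 4 KO-labelled and 0 of 4 control libraries. The fold was, on the log2 scale, 1.03 (FDR 0.0471) by the authors' deposited table, and its peak overlaps the RefSeq start window of the predicted gene Gm33475. The downstream peak of Lsm11, a U7 snRNP protein gene of histone mRNA processing, had 4.23 log2 reads in KO-labelled and 2.64 in control islets, a log2 fold of 1.59 (FDR 0.0267) by the authors' deposited table.

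Among signalling and membrane genes, the downstream peak of Camk2g, which encodes a calcium/calmodulin-dependent kinase, had 4.39 log2 reads in KO-labelled and 3.20 in control islets. Its log2 fold was 1.19 (FDR 0.0351, implied SE 0.38) by the authors' deposited table, and it is the peak over the Ndst2 start shown above. Vsig8, an immunoglobulin-domain gene, had 5.45 log2 reads in KO-labelled and 4.41 in control islets at its 3' UTR, a log2 fold of 1.04 (FDR 0.037) by the authors' deposited table. The peak was called in 4 of 4 KO-labelled and 3 of 4 control libraries, while 7 of the 9 gained members were called in 0 control libraries. So were 39.3% of all members and 28.4% of all peaks, and gained members were picked for being lower in control islets. Aqp4, a water channel gene (3' UTR, log2 fold 1.27, FDR 0.0386), and Synpo, an actin-associated protein gene (exon 3 of 3, log2 fold 1.27, FDR 0.0396), also gained in the authors' deposited table. Another Synpo exon peak (chr18:60605946-60606546) had a log2 fold of -0.16 in the same table and was not called. Mboat4, the ghrelin O-acyltransferase gene, gained in its last exon, with 4.23 log2 reads in KO-labelled and 3.21 in control islets and a log2 fold of 1.02 (FDR 0.0491) by the authors' deposited table.

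The member called lower in KO-labelled than in control islets after PPx was exon 61 of 67 of Pkhd1 (chr1:20117046-20117646), which encodes fibrocystin of the primary cilium. It had 3.63 log2 reads in KO-labelled and 4.79 in control islets, and was called in 1 of 4 KO-labelled and 4 of 4 control libraries. The log2 fold at this peak was -1.16 (FDR 0.0345, implied SE 0.37) by the authors' deposited table. With PPx the Pkhd1 peak had log2 folds of -0.26 (FDR 0.583) in KO-labelled and 0.69 (FDR 0.999) in control islets in the authors' deposited tables, neither called. The 3' UTR peak of Pkhd1 (chr1:20058192-20058792) had a log2 fold of -0.42 (FDR 0.385) by genotype after PPx in the authors' deposited table. Before PPx the genotype folds were -0.16 at exon 61 and -0.80 in the 3' UTR, and none of these was called. Other members on the lower side after PPx did not pass. The authors' deposited table gave log2 folds of -1.27 for the Lifr 3' UTR (FDR 1), -0.57 for the downstream peak of Olfr78 (FDR 0.148) and -0.96 for exon 32 of 34 of Muc6, a gastric mucin gene (FDR 1).

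**Figure D3:**
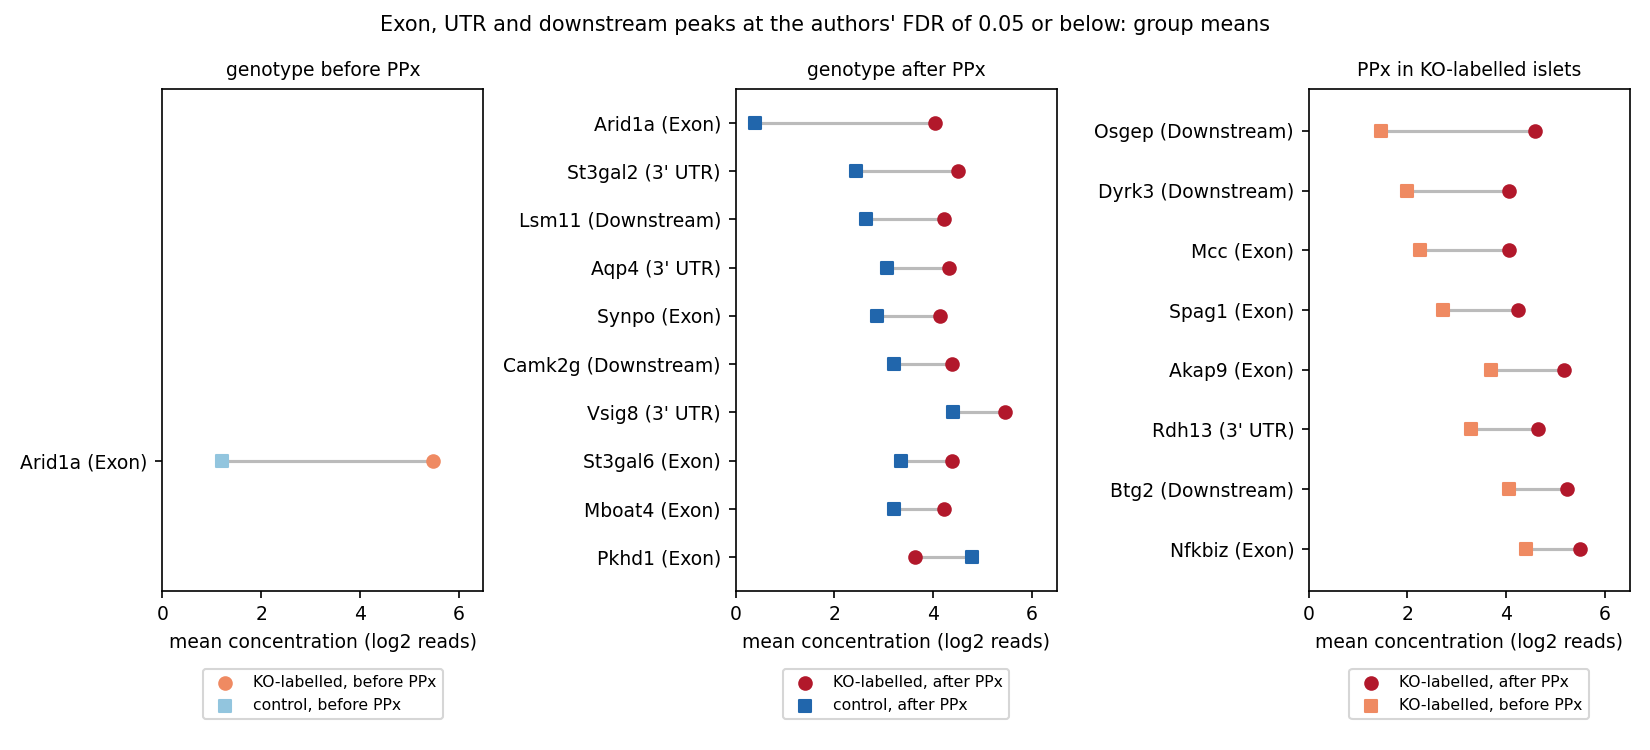
Group means (log2 normalised reads, horizontal axis) of called members in the 3 tables that have any (1 is not drawn), with circles for KO-labelled islets in the genotype tables and for islets after PPx in the right panel, and squares for the group they are set against. The circle lies right of the square for every member drawn except Pkhd1 (3.63 in KO-labelled and 4.79 in control islets).

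In control islets 0 members passed after PPx. The median log2 fold was 0.20 (middle 50% from 0.035 to 0.465), against 0.16 over all peaks. Of 151 members 120 (79.5%) were above 0, against 72.8% of all peaks, and the median implied SE of a member was 0.42. The authors' FDR called 0 members gained and 0 lost (all peaks: 0% gained, 0% lost). At an unadjusted p under 0.05, 6 were higher and 0 lower (all peaks: 2.43% higher, 0.0991% lower). The smallest p on the higher side belonged to exon 58 of 103 of Dst, the cytoskeletal linker dystonin, with 4.14 log2 reads after and 3.03 before PPx and a log2 fold of 1.10 (FDR 0.999, implied SE 0.43) by the authors' deposited table. Next were the Pde4dip 3' UTR (0.89), the Gas2 5' UTR (0.97) and the Ttc39b 3' UTR (0.93), all at an FDR of 0.999 in the authors' deposited table. On the lower side it gave -0.70 for exon 23 of 65 of Fbn2 (fibrillin 2), -0.51 for the downstream peak of Gpr84 and -0.53 for the Armc8 3' UTR, at the same FDR in the authors' deposited table.

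In KO-labelled islets, members lay higher after PPx by a median log2 fold of 0.78 (middle 50% from 0.495 to 1.055), against 0.83 over all peaks, 0.83 for introns, 0.80 for distal and 0.86 for promoter peaks. Of 315 members 304 (96.5%) were above 0, against 97.1% of all peaks, and the median implied SE of a member was 0.55. The part of listing in the members' median was not tested here either. The 143 regions listed only in the 2 tables with KO-labelled libraries after PPx had a median of 0.95, with 141 above 0. The 108 regions listed in all 4 tables had a median of 0.72, with 105 above 0. Downstream members had a median of 0.95, 5' UTR members 0.845, exon members 0.75 and 3' UTR members 0.71. The authors' FDR called 9 members gained, 2.86% of them, and 0 lost, against 7.45% of all peaks gained and 0% lost. At an unadjusted p under 0.05, 76 were higher and 1 lower (all peaks: 39.4% higher, 0.0235% lower). With folds centred on the table median 0 members passed in either direction. An FDR of 1 stood beside 33% of the members and 20.9% of all peaks.

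The largest gain after PPx was downstream of Osgep (chr14:50903807-50904407), a tRNA-modification gene. Osgep had 4.59 log2 reads after and 1.46 before PPx in KO-labelled islets, called in 4 of 4 libraries after and 0 of 3 before, with a log2 fold of 3.13 (FDR 0.0282, implied SE 0.87) by the authors' deposited table. Akap9, which encodes an anchor of protein kinase A at the centrosome and Golgi, had 5.17 log2 reads after and 3.69 before PPx in exon 18 of 48. In log2 units the fold was 1.48 (FDR 0.0231) by the authors' deposited table.

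Dyrk3 and Btg2 gained downstream of the gene. Dyrk3 had 4.05 log2 reads after and 1.99 before PPx (log2 fold 2.06, FDR 0.0282), and Btg2, a p53 target that restrains proliferation, had 5.23 after and 4.06 before PPx (log2 fold 1.17, FDR 0.0406) in the authors' deposited table. The Btg2 peak was called in only 2 of 4 libraries after and 0 of 3 before PPx. Nfkbiz, which encodes the nuclear IkB zeta, had 5.49 log2 reads after and 4.39 before PPx in exon 6 of 12, called in 4 of 4 libraries after and 3 of 3 before, with a log2 fold of 1.09 (FDR 0.041) by the authors' deposited table. Rdh13 (3' UTR, a mitochondrial retinol dehydrogenase gene, 1.37), Mcc (exon 11 of 17, 1.78) and Spag1 (exon 11 of 19, a dynein-arm assembly gene, 1.51) also gained, at an FDR of 0.041, 0.0409 and 0.0488 in the authors' deposited table. Adjusted over all listed peaks, the call of Spag1 ended (0.058). On the lower side the authors' deposited table gave log2 folds of -1.22 for Arid1a exon 9 (FDR 0.0584), -0.47 for Frmpd4 exon 10 of 17 (FDR 1), -0.26 for Pkhd1 exon 61 (FDR 0.583) and -0.31 for Amotl1 exon 4 of 13 (FDR 1), none of which passed.

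Mcc and Dyrk3 were named both in the genotype table before PPx and in the PPx table of KO-labelled islets. Those tables share the 3 KO-labelled libraries taken before PPx, so a low value there lowers 1 fold and raises the other. Mcc and Dyrk3 had log2 folds of -1.32 and -1.59 before PPx (KO-labelled minus control) and of 1.78 and 2.06 with PPx in KO-labelled islets in the authors' deposited tables. The 2 tables with no KO-labelled library from before PPx gave smaller values. With PPx in control islets the folds were -0.17 and 0.53, and in the genotype table after PPx they were 0.33 and 0.05, none called, in the authors' deposited tables.

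**Figure D4:**
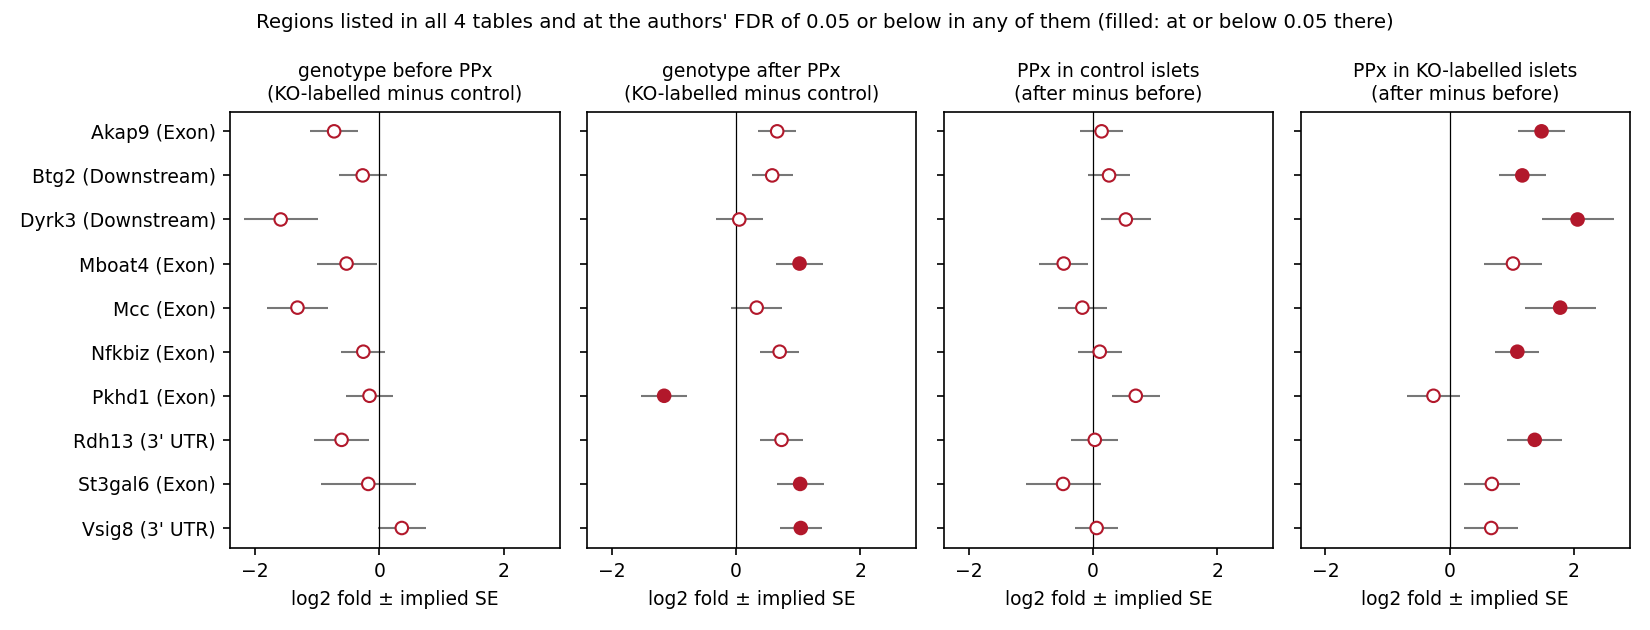
Log2 fold ± implied SE (horizontal axis) in each of the 4 tables for 10 regions listed in all 4 and called in at least 1, with filled circles where the peak was called. Mcc and Dyrk3 lie left of 0 in the genotype table before PPx and right of 0 in the PPx table of KO-labelled islets, which share libraries.

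Whether the genotype fold differed between states was tested on the 7504 peaks listed in both genotype tables, which share no library. Of the 127 members among them, 109 had a higher fold after PPx than before, with a median difference of 0.49 log2 units, against 0.64 over all matched peaks. After Benjamini-Hochberg adjustment of the z test over all matched peaks 0 members passed, against 0.0267% of all peaks. At an unadjusted p under 0.05 there were 14 members with a higher and 1 with a lower fold after PPx, 11.8% of them, against 14.5% of all peaks. Akap9 exon 18 was among the higher ones, with a fold of 0.66 after and -0.73 before PPx (difference 1.39, SE 0.49, adjusted value 0.304). The lower 1 was Fez2 exon 5, with -0.08 after and 1.77 before PPx (difference -1.85, SE 0.76, adjusted value 0.304).

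Of 20 lists with 380 genes of islet cell types, signalling, chromatin and cell cycle, 10 genes in 7 lists had such a region, 11 regions in all, and Arid1a was the 1 that was called. The ERBB list (EGF-family ligands and their receptors) had most, with 2 peaks of Egf and 1 each of Egfr, Nrg2 and Nrg3 after PPx. Of these, 0 were called by genotype after PPx, against 9.89% of all peaks gained. Their median log2 fold was 0.74, against 0.39 over all members and 0.61 over all peaks. Egfr and Nrg2 had such a peak only in the 2 tables with KO-labelled libraries after PPx. Egf exon 6, over the inner start site shown above, had 5.60 log2 reads in KO-labelled and 4.86 in control islets after PPx, called in 4 of 4 libraries of each. Its log2 fold was 0.74 (FDR 0.0827, implied SE 0.34) by the authors' deposited table. Egf exon 4 had 3.45 log2 reads in KO-labelled and 2.06 in control islets, a log2 fold of 1.39 at an FDR of 1 in the authors' deposited table. Nrg3, a neuregulin gene, had a log2 fold of 0.42 (FDR 1) before PPx in the authors' deposited table.

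The other listed genes had 1 region each. Abcc8, the sulfonylurea receptor of the beta cell potassium channel, had a peak in exon 20 of 39 with 5.37 log2 reads in KO-labelled and 4.70 in control islets after PPx. The fold was, on the log2 scale, 0.67 (FDR 0.101, implied SE 0.33) by the authors' deposited table, and before PPx it was 0.07 (FDR 1). Cdk1, the mitotic kinase gene, had a downstream peak at log2 folds of 0.29 by genotype after PPx (FDR 0.522) and 0.97 by PPx in KO-labelled islets (FDR 0.14) by the authors' deposited tables. The authors' deposited table of genotype after PPx gave 1.03 for exon 20 of 34 of Lamb1, a laminin gene (FDR 0.243), and 0.24 for exon 9 of 32 of Rims1, an active-zone gene (FDR 1). The 3' UTR peak of Egr1, an immediate-early factor gene, had a log2 fold of -0.12 (FDR 1) before PPx in the authors' deposited table.

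Among peaks over start sites, the Zfp329 downstream peak at the Zscan18 start had 5.24 log2 reads after and 4.11 before PPx in KO-labelled islets (log2 fold 1.13, implied SE 0.47, FDR 0.0703), and 4.40 after and 3.72 before PPx in control islets (0.68, implied SE 0.35, FDR 0.999) in the authors' deposited tables. The H2bc6 5' UTR peak had 3.52 log2 reads in KO-labelled and 3.45 in control islets after PPx, a log2 fold of 0.07 (FDR 1) by the authors' deposited table. Of the 13 such regions, those of Camk2g and St3gal6 were called, both in the genotype table after PPx. Gained in the same comparison were 2.74% of members and 9.89% of all peaks, and these shares were not tested against each other. Adjustment over all listed peaks ended the call of St3gal6 (0.066) and kept that of Camk2g (0.049).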

How the data were processed

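The 15 libraries were read from 1 end at 75 bp, as the labels' protocols give it. Cutadapt, BWA, MACS, DiffBind and ChIPseeker with the mm10 build are named per the submitters' processing notes, without settings. The authors deposited 4 tables of peaks of 601 bp with log2 concentrations averaged per group, a log2 fold, a p-value and an FDR from a test not named, library call numbers and annotation. Repeated rows (1197, 5281, 1337 and 4588) and 1 blank row were removed, and folds were turned so that KO-labelled islets and islets after PPx come first. The implied SE of a fold under 0.1, or with p of 0.95 and above, was the median of 1 of 40 concentration bins. Peaks that overlap by 1 bp or more were matched. Coordinates are 1-based mm10 positions as deposited. Differences of folds went through a z test (two-sided) and Benjamini-Hochberg adjustment, checked on simulated data (Python 3 with pandas, scipy and matplotlib). The p-values are read as measuring spread between libraries of 3 or 4 mice. Depth is unknown.

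The members, gene lists and tests were chosen with earlier results of these data known. The genes named were, per table, up to 10 called members per direction with the smallest FDR, or the 4 with the smallest p where fewer than 4 were called, the 3 of highest concentration per class, the listed genes' called or smallest-p member, every Arid1a peak, and the 8 highest regions in all 4 tables. The text gives those the results turn on. Alternatives were other FDR thresholds, another adjustment, centring, repeated rows, a concentration minimum, the left-out genes and a wider overlap. A called member is counted but not reported by name here.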

Additional observations from a re-analysis of the deposited data

How the results depend on the processing

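Across 14 results, 92 alternative settings left 78 values within their tolerance (1.5 times for a count, the median implied SE for a fold). After PPx, the 9 gained members by genotype became 1 at an FDR of 0.01, 35 at 0.1 and 1 with folds centred on the table median, where Arid1a alone passed. The 1 lost member became 0 at an FDR of 0.01 and 2 with centred folds, with repeated rows kept, or with Gm, Mir and Rik genes kept. For PPx in KO-labelled islets, the 9 gained members became 0 at an FDR of 0.01, 49 at 0.1, 0 with centred folds and 14 with repeated rows kept, and the 0 lost became 1 at 0.1. Minus the table median, the members' median fold was -0.22 in the genotype table after PPx and -0.05 for PPx in KO-labelled islets. Adjustment over all listed peaks left 6 gained by genotype after PPx, of which 4 were among the 9, and 9 gained for PPx in KO-labelled islets, of which 8 were among the 9. Leaving out members over a start-site window, an alternative chosen after seeing the data, moved no count by over 1.5 times. Classing peaks by the reference was not run, since exon coordinates were not used here. Single libraries could not be left out, because the tables hold group means. No paired analysis was possible because the groups share no replicate numbers and the tables hold group means. An FDR of 1 stood beside 161 of 328 members after PPx, and no member with it can be called.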

Other observations

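Chromosome 3 held 44 of the 359 exon, UTR and downstream regions (12.3%), against 7.4% of all regions and 7.2% of intron regions of named genes, and chromosome 19 held 2 (0.6%), against 1.8% of all regions. No test of these shares was made. Chd7, the chromatin remodeller gene, had 3 regions in separate exons. In KO-labelled islets the authors' deposited table gave Chd7 log2 folds after minus before PPx of 0.75 in exon 13, 1.17 in exon 24 and 0.66 in exon 29, at FDRs of 1, 0.0781 and 0.273. Over all peaks of that comparison the median was 0.83, with 97.1% above 0. All 3 folds rest on the same KO-labelled libraries from before PPx.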
